A study of Mus musculus with 4 samples.

Results

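The 5 genes of mouse chromosome 2, Gm14295, Gm14305, Gm14325, Gm14391 and Zfp969, were followed in brain RNA of 2 inbred strains and of the hybrids from both directions of their cross. They were picked by gene name, with values of these same libraries known, and are 5 of 45215 genes in the tables, with 18 of 128603 transcripts. The groups were F1r, the hybrid labelled CAST/EiJ x C57BL/6; F1i, the hybrid labelled C57BL/6 x CAST/EiJ; CAST, the inbred strain CAST/EiJ derived from Mus musculus castaneus; and B6, the inbred laboratory strain C57BL/6. All mice were labelled wild type; their age, their sex and which parent was the dam were not stated. Each group was 1 library made from the pooled left hemispheres of 5 mice, so no value has a replicate error, no test was run and every difference is between 2 libraries. In a pooled tissue, fewer cells of a type and less RNA per cell cannot be told apart.

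C2H2 zinc finger proteins bind DNA through an array of finger repeats, and many of them carry a KRAB box at the amino end. The KRAB box recruits the corepressor TRIM28, which brings histone methylation and heterochromatin proteins to the bound DNA, and in mice such proteins are known above all for silencing transposable elements. These genes multiply by tandem duplication, so that a cluster can hold many copies with almost the same sequence, and the distal part of mouse chromosome 2 holds one of the large clusters. No role is given here for any single one of the 5.

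The annotation placed Gm14391 at chr2:175191065-175206917 on the minus strand (GRCm38), Zfp969 at chr2:175692223-175703646 on the minus strand, Gm14305 at chr2:176708328-176721813 on the plus strand, Gm14295 at chr2:176798612-176811223 on the plus strand, and Gm14325 at chr2:177831791-177840336 on the minus strand. All 5 are annotated as protein-coding. Every member has a coding exon of 127 bases in the KRAB-encoding part of the gene, and it shows how alike they are. The exons are printed here 5′ to 3′ on the coding strand, from the GENCODE M21 transcripts, with capitals at the 11 positions where the 5 are not all the same; the other 116 positions are shared.
Gm14295 (chr2:176807362-176807488, plus strand): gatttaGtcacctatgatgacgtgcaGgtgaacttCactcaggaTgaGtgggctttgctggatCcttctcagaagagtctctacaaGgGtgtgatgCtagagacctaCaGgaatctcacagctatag
Gm14305 (chr2:176718957-176719083, plus strand): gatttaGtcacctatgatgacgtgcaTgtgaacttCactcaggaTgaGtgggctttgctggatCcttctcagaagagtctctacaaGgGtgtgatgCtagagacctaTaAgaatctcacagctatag
Gm14325 (chr2:177834520-177834646, minus strand): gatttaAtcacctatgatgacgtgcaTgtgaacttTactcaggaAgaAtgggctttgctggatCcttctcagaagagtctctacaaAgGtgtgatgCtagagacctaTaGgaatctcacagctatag
Gm14391 (chr2:175197807-175197933, minus strand): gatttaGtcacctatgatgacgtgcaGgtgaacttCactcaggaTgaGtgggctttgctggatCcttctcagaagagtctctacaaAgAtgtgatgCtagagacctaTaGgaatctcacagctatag
Zfp969 (chr2:175695587-175695713, minus strand): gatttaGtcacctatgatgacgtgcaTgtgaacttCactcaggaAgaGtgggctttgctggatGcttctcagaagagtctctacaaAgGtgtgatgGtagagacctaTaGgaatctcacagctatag
Between any 2 members, 3 to 7 of the 127 bases differed.

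Beyond the KRAB exon the genes part ways in their finger arrays. A search of the longest coding transcripts for the C2H2 spacing found 25 fingers in Gm14295, 16 in Gm14391, 14 each in Gm14305 and Gm14325, and 11 in Zfp969. Gm14305 and Gm14325, whose coding sequences are both 1494 bases, were 95.3% identical from end to end. For the transcripts as a whole, every stretch of 31 bases (a word) was searched in all other annotated genes. Of their words, Gm14305 shared 72.5% with other members, Gm14295 64.9%, Gm14325 54.8%, Gm14391 21.9% and Zfp969 10.2%. The 21.9% of Gm14391 takes in Gm14391-205, a transcript that keeps an intron, with 175 of its 5506 words in other members. The share was 1474 of 1824 words in Gm14391-204, 1445 of 1926 in Gm14391-203 and 1342 of 1635 in Gm14391-206, which encode fingers. It was 772 of 935 in Gm14391-202 and 248 of 443 in Gm14391-201, which have no finger pattern. At 10.2%, Zfp969 is thus not a near copy of the other 4 members. All of its words, 100%, occur in Zfp968, and 99.8% each in Zfp966 and Zfp967, which lie in the same cluster.

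The members also share sequence with genes outside the list. In all, 16 further genes of chromosome 2, called relatives here, had at least 50% of their own words among the pooled words of the 5 members. Of these, 15 carry the 127-base exon, and in 11 it is letter for letter that of a member: 7 match Gm14305, Gm6710 matches Gm14391, and Zfp966, Zfp967 and Zfp968 match Zfp969. Counting all annotated genes, the words that occur nowhere else made up 64.2% of Gm14391, 15.0% of Gm14295, 11.9% of Gm14325, 5.10% of Gm14305 and 0% of Zfp969. Nearly all of the words that Gm14391 has to itself, 4694 of 4796, lie in 1 transcript that keeps an intron. How fragments that match several genes were divided between them is not given in the sources used here, so the level of each single gene is uncertain.

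**Figure D1:**
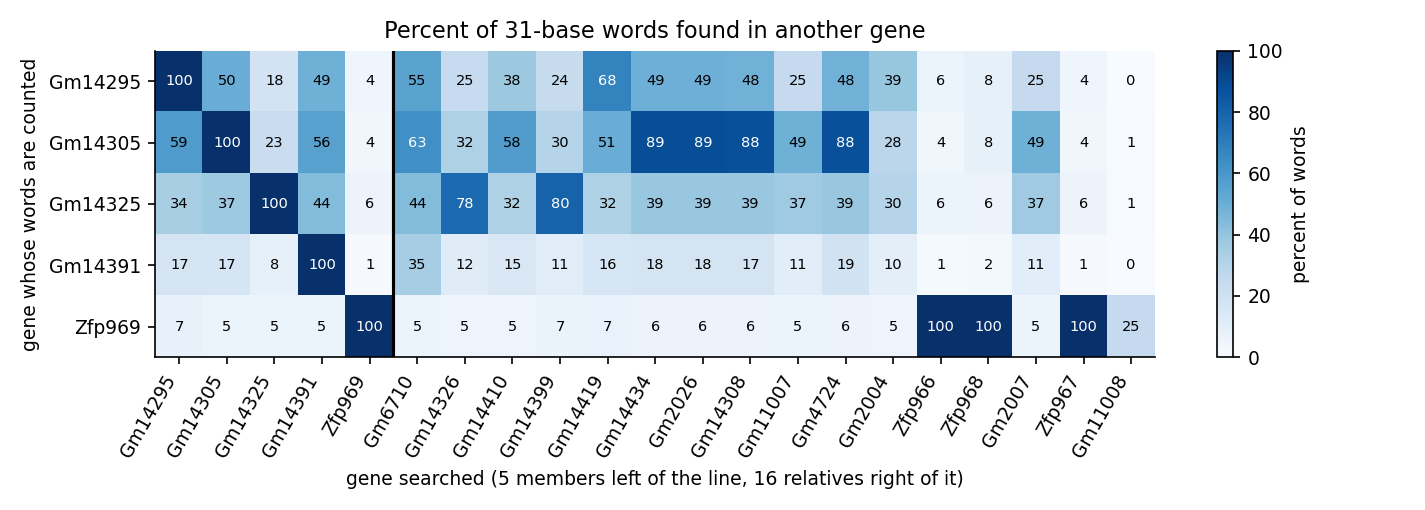
Percent of the 31-base words of each member (down the side) that occur in each other member and in each of the 16 relatives (along the bottom). Zfp969 shares 100% of its words with Zfp968 and no more than 7.03% with another member, while Gm14305 shares 58.5% with Gm14295 and 88.6% with Gm14434.

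The promoters are alike as well. Windows of 250 bases before to 50 after the start were held in RefSeq's sequences (GRCm38.p6) for 4 of the 5, Gm14295, Gm14305, Gm14325 and Gm14391, and where 2 windows overlapped in an alignment they were 94.3% to 97.4% identical. The windows of Gm14391 and Gm14325 are printed because these genes had the highest levels of the 5 in F1r (Gm14391) and in B6 (Gm14325). Capitals mark the motif CCAAT and its reverse complement ATTGG.
Gm14391 (chr2:175206875-175207174, minus strand): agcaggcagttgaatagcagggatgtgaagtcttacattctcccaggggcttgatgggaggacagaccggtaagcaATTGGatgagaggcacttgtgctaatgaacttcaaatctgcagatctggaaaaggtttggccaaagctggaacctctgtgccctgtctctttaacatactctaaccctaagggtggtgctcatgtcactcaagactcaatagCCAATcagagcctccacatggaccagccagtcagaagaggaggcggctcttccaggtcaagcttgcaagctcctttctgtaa
Gm14325 (chr2:177840287-177840586, minus strand): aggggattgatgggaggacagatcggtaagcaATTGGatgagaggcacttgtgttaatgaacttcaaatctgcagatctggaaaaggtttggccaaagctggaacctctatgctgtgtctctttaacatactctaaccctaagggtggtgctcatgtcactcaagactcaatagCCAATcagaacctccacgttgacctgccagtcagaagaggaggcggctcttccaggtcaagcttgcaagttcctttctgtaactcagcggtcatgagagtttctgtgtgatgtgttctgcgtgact
Each of the 4 windows held the motif once in each orientation. Of all 32851 promoter windows in the table, 37.4% held it in at least 1 orientation, and the share with both is not given. As the 4 windows are near copies of each other, they do not count as 4 separate cases.

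Levels are given in FPKM, fragments per kilobase of transcript and scaled to library depth, summed over the transcripts of at least 200 bases of a gene. The libraries looked like brain: 13 brain markers lay between 6.06 FPKM (Cx3cr1 of microglia, in CAST) and 1039 FPKM (Mbp of myelin, in B6), and 10 markers of other tissues between 0 and 7.11 FPKM (Omp of olfactory neurons, in CAST). A single fragment on 1 kb of transcript was worth about 0.0322 FPKM in F1r, 0.0291 in F1i, 0.0325 in CAST and 0.0231 in B6. By that worth, the depth relative to B6 was 0.716 in F1r, 0.792 in F1i and 0.709 in CAST. Differences are of log2(FPKM + 1), which understates the change of low values, and higher or lower by the 2-fold rule means a gap of 1 or more in these values. Over all 13768 genes with a mean of at least 1 FPKM, 2.27% were lower (312) and 2.85% higher (393) in CAST than in B6; rescaled to a common total FPKM, 228 were lower and 465 higher.

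As a sum, the 5 genes were lowest in CAST. They came to 58.7 FPKM in F1r, 45.5 FPKM in F1i, 20.4 FPKM in CAST and 64.4 FPKM in B6. Both hybrids and B6 thus lay above CAST, with a log2 difference of -1.61 between CAST and B6. Measured as a position between the parents in FPKM, with 0 for B6 and 1 for CAST, F1r stood at 0.130 and F1i at 0.429. These positions depend on Gm14391. Without it the sum was 33.4 FPKM in F1r, 30.9 in F1i, 17.9 in CAST and 63.7 in B6, with both hybrids nearer to CAST. For the sum of all 5, the hybrid mean exceeded the parental mean by 0.49 and F1r exceeded F1i by 0.36 (both log2), neither of them 2-fold.

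Taken singly, the members did not share 1 pattern. By the 2-fold rule, 4 of the 5 were lower and 1 was higher in CAST than in B6; since the list was made with these values known, this count describes the list and is no evidence about it. Which member made up most of the sum also changed: Gm14391 held 43.1% of it in F1r, 32.2% in F1i, 12.4% in CAST and 1.04% in B6. Gm14325 held 35.6% of the sum in F1r, 40.4% in F1i, 73.4% in CAST and 60.9% in B6.

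**Figure D2:**
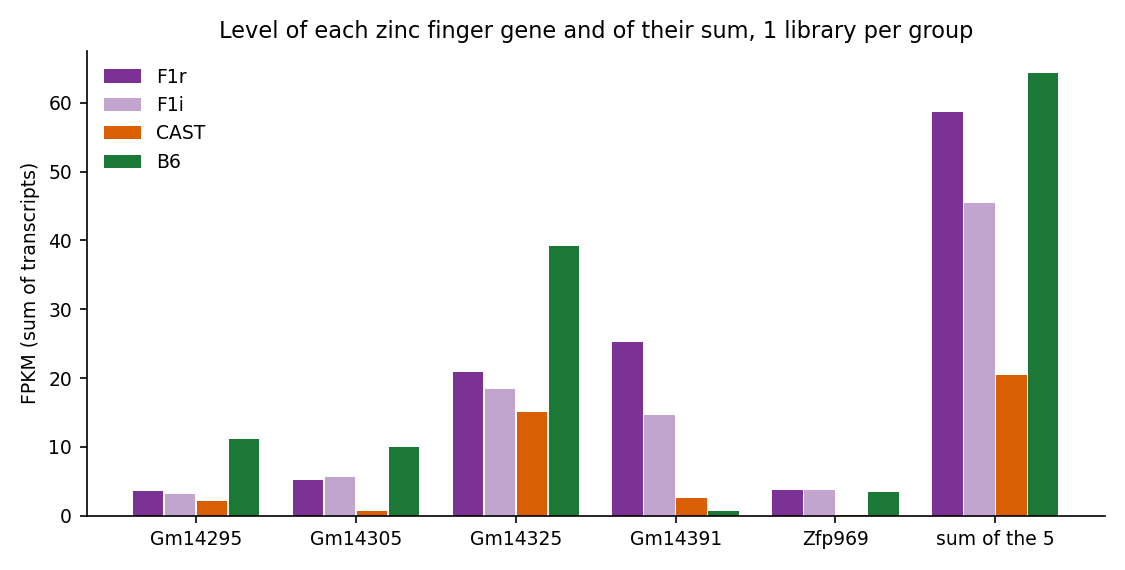
FPKM of each member and of their sum, with 1 bar for each single library (F1r, F1i, CAST, B6), so there are no error bars. Gm14391 reached 25.3 FPKM in F1r and 14.7 in F1i but no more than 2.53 in the inbred strains, whereas Gm14295, Gm14305 and Gm14325 were highest in B6.

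Gm14391 was high in the hybrids relative to both parents. Its level was 25.3 FPKM in F1r, 14.7 FPKM in F1i, 2.53 FPKM in CAST and 0.672 FPKM in B6. Both hybrids lay above both parents, by a log2 difference of 3.06 between the hybrid and parental means, and the weaker hybrid still stood 2.15 above the higher parent. Over all genes compared, 0.0291% (4 of 13768) had both hybrids at least 2-fold above both parents, and 0.298% had a hybrid mean at least 2-fold above the parental mean. Gm14391 is itself counted in both shares. Since the list was made with values of this kind known, the shares are a description and no evidence about the gene. F1r also exceeded F1i by 0.75, short of 2-fold, and CAST exceeded B6 by 1.08.

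Most of the FPKM of Gm14391 in the hybrids came from 1 short transcript. Gm14391-201, of 473 bases, holds the 127-base exon but no finger pattern; its level was 21.1 FPKM in F1r, 10.5 in F1i, 0.134 in B6 and 0 as listed for CAST. It made up 83.5% of the gene in F1r and 71.4% in F1i. Weighted by length, it came to 9.99 of 15.6 FPKM × kb in F1r and 4.95 of 10.3 in F1i. By that measure it was not the larger part of the gene in F1i. The last exon of Gm14391-201, of 107 bases, holds sequence found in no other annotated gene and in no other transcript of Gm14391. Of this sequence, 30 bases, partly coding, are shown.
Gm14391-201 (chr2:175191142-175191171, minus strand): actccaaagtacttgtatgctaagctaaga
The other short form, Gm14391-202, was at 3.23 FPKM in F1r, 3.26 in F1i, 0.886 in CAST and 0.302 in B6. In both of these transcripts, which lack finger patterns, the hybrids were above both parents. With FPKM times length the hybrid excess of the gene was 1.72, still past 2-fold. Over the transcripts of at least 500 bases it was 1.15, also past 2-fold. Among these, Gm14391-202 had by far the highest level in both hybrids, at 12.8% of the gene in F1r and 22.2% in F1i. It has 0 of 935 words that occur in no other gene, so its level is uncertain.

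The transcripts of Gm14391 with a finger array were low and did not share 1 order. Gm14391-204, which encodes 16 fingers, was at 0.390 FPKM in F1r, 0.356 in F1i, 1.09 in CAST and 0.108 in B6. Gm14391-203, also with 16 finger patterns, was at 0.362 FPKM in F1r, 0.443 in F1i and 0.0928 in B6, and listed at 0 in CAST. Gm14391-206, which begins at the start codon, had 0.334 FPKM in CAST and 0.00051 in B6, and 0 as listed for both hybrids. The intron-keeping Gm14391-205, 85.3% of whose words occur in no other gene, was at 0.186 FPKM in F1r, 0.131 in F1i, 0.222 in CAST and 0.0350 in B6. In this transcript, the one best marked by sequence of its own, both hybrids lay between the parents. At about 32.0 fragments in F1r, 24.9 in F1i, 37.7 in CAST and 8.41 in B6, it rests on few reads.

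Zfp969 was the other member above both parents in both hybrids, by a small margin over B6. It was at 3.72 FPKM in F1r, 3.68 FPKM in F1i, 0.0974 FPKM in CAST and 3.38 FPKM in B6. The hybrids and B6 were close to each other and CAST stood apart, at -2.00 on the log2 scale against B6. Both hybrids lay above both parents by any amount in 8.77% of all genes compared. The hybrid mean was 1.10 above the parental mean when log2 values were averaged and 0.78, under the 2-fold rule, when FPKM were averaged first.

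In F1r, F1i and B6 most of the FPKM of Zfp969 came from its transcript of 252 bases. In CAST all of it came from the full-length form. Zfp969-202, which has the 127-base exon and no finger pattern, was at 3.46 FPKM in F1r, 3.48 in F1i and 2.94 in B6, with CAST listed at 0. Multiplied by its length in kb, this is only 0.871 in F1r, 0.877 in F1i and 0.741 in B6. With 1 fragment worth 0.0322, 0.0291 and 0.0231 in these libraries, this form too rests on few fragments. The full-length Zfp969-203, with 11 fingers, was at 0.264 FPKM in F1r, 0.198 in F1i, 0.0974 in CAST and 0.443 in B6. Those levels rest on about 11.9 fragments in F1r, 9.91 in F1i, 4.36 in CAST and 28.0 in B6. Multiplied by its length in kb, Zfp969-203 came to 0.384 in F1r, 0.289 in F1i, 0.142 in CAST and 0.645 in B6. By that measure it was close to the short form in B6. For the full-length form the hybrids lay between the parents. At levels this far below 1 FPKM the added 1 shrinks the log2 difference, which was -0.39 between CAST and B6 for this form alone. Zfp969-201, of 417 bases, was listed at 0 in every library. Neither form has a word of its own, and Zfp966, Zfp967 and Zfp968 were low: none exceeded 0.338 FPKM in any library. Summed with these 3 copies, Zfp969 came to 4.04 FPKM in F1r, 3.94 in F1i, 0.246 in CAST and 3.94 in B6.

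Gm14325 had the highest mean level of the 5. It was at 20.9 FPKM in F1r, 18.4 FPKM in F1i, 15.0 FPKM in CAST and 39.2 FPKM in B6. CAST was lowest and B6 highest, a log2 difference of -1.33, and both hybrids lay closer to CAST, at positions 0.758 in F1r and 0.860 in F1i. The strains differed in which transcript carried the gene. Gm14325-202, of 310 bases and without fingers, was at 13.8 FPKM in F1r, 12.4 in F1i, 3.05 in CAST and 35.9 in B6, where it made up 91.6% of the gene. Its last 30 bases, which include coding sequence and occur in no other annotated gene and in no other Gm14325 transcript, are shown.
Gm14325-202 (chr2:177834229-177834258, minus strand): catggaaggtacttttcttctgcaacctga

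The 2 finger-encoding forms of Gm14325 differ by an upstream exon of 82 bases. Gm14325-201, which has that exon, was at 5.32 FPKM in F1r, 2.94 in F1i, 0.722 in CAST and 3.31 in B6. Gm14325-203, which lacks it, was at 1.75 FPKM in F1r, 3.03 in F1i and 11.2 in CAST, and listed at 0 in B6. Added together, the finger-encoding forms came to 7.07 FPKM in F1r, 5.98 in F1i, 11.96 in CAST and 3.31 in B6. This is the reverse of the gene's order: CAST was highest and B6 lowest. When each transcript was weighted by its length, which follows fragments and not molecules, Gm14325 came to 15.3 FPKM × kb in F1r, 13.0 in F1i, 18.9 in CAST and 16.3 in B6, so that the lower level in CAST rests on the short transcript.

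Gm14305 was lower in CAST than in either hybrid or B6. It was at 5.23 FPKM in F1r, 5.63 FPKM in F1i, 0.725 FPKM in CAST and 10.04 FPKM in B6. The hybrids lay midway between the parents, at positions 0.516 in F1r and 0.474 in F1i, and CAST stood -2.68 from B6. Its short form without fingers, Gm14305-201, was at 3.57 FPKM in F1r, 3.64 in F1i, 0.273 in CAST and 7.19 in B6. In the inbred strains the finger-encoding forms split as in Gm14325, and in the hybrids they did not. The form with upstream exons, Gm14305-202, was at 0.149 FPKM in F1r, 1.28e-05 in CAST and 2.85 in B6, and listed at 0 in F1i. The form that begins at the start codon, Gm14305-203, was at 1.52 FPKM in F1r, 1.99 in F1i, 0.452 in CAST and 0.00033 in B6. The form without upstream exons thus made up 91.1% of these 2 in F1r and 100% in F1i, where for Gm14325 it made up 24.8% in F1r and 50.8% in F1i. Together the 2 forms of Gm14305 came to 1.67 FPKM in F1r, 1.99 in F1i, 0.452 in CAST and 2.85 in B6, again with the hybrids between the parents. Zfp973, another zinc finger gene on the same strand, overlaps Gm14305 and was at 1.05 FPKM in F1r, 1.25 in F1i, 0.0875 in CAST and 1.84 in B6; its part in the values of Gm14305 was not tested.

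Gm14295, with the longest finger array, was at 3.55 FPKM in F1r, 3.17 FPKM in F1i, 2.09 FPKM in CAST and 11.1 FPKM in B6. B6 stood above the other 3, with CAST at -1.97 from it on the log2 scale and the hybrids near CAST, at 0.838 in F1r and 0.880 in F1i. Its 2 long transcripts had the same order of the inbred strains: the form without fingers, Gm14295-201, was at 2.93 FPKM in F1r, 2.44 in F1i, 1.83 in CAST and 9.61 in B6. Gm14295-202, which encodes 25 fingers, was at 0.627 FPKM in F1r, 0.730 in F1i, 0.259 in CAST and 1.48 in B6. A transcript of 192 bases, Gm14295-203, was left out of the sums for its length; it was listed at 0 in F1r and CAST, at 4.72 FPKM in F1i and at 1.25 in B6. With it, Gm14295 came to 3.55 FPKM in F1r, 7.89 in F1i, 2.09 in CAST and 12.3 in B6. F1i then exceeded F1r, with F1r minus F1i at -0.97 in place of 0.13, and no longer lay near CAST.

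**Figure D3:**
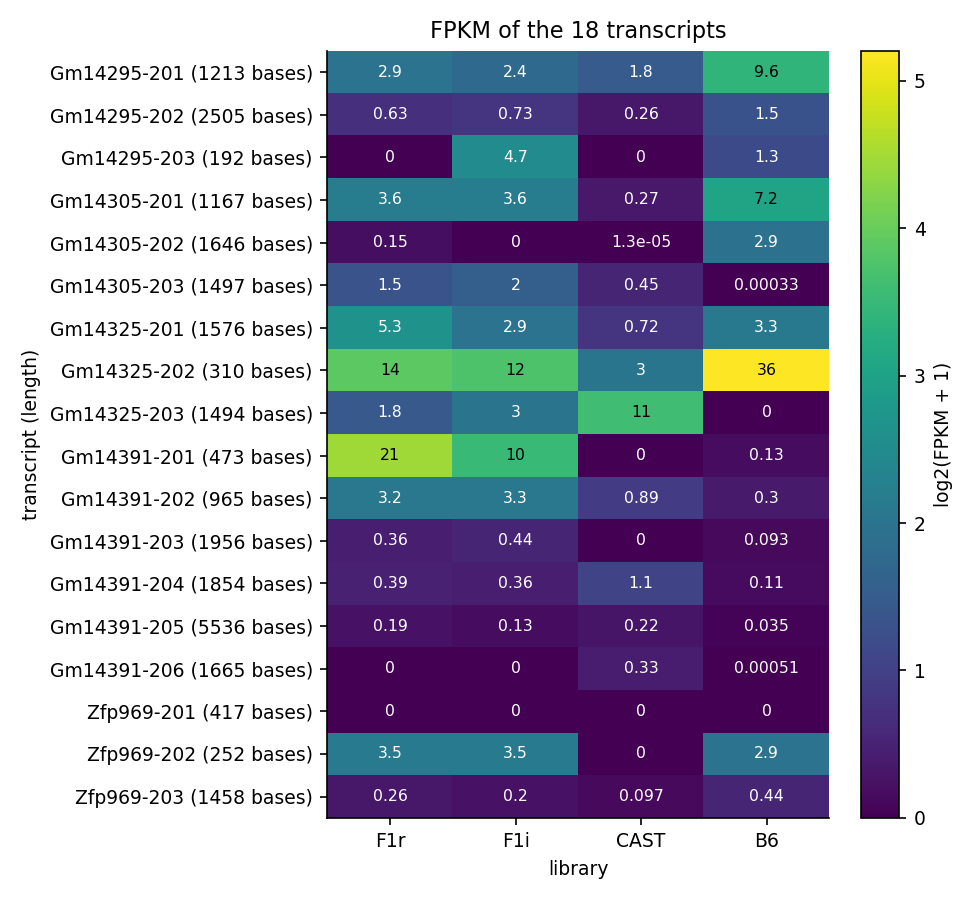
FPKM (printed) of all 18 transcripts in the 4 libraries, coloured by log2(FPKM + 1), with transcript lengths in bases. The largest single values are those of the short Gm14325-202 in B6 (35.9) and Gm14391-201 in F1r (21.1), while the finger-encoding Gm14325-203 is at 11.2 in CAST and 0 in B6.

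Across the 17 transcripts of at least 200 bases, the library with the highest value was B6 for 6, CAST for 4, F1i for 4 and F1r for 2, and Zfp969-201 was at 0 throughout. Between the hybrids, none of the 5 genes was 2-fold apart, against 0.24% of all genes higher and 0.269% lower in F1r than in F1i.

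The relatives were set beside the members because they share most of their sequence. Of the 16, 6 had a mean of at least 1 FPKM. Gm6710, whose KRAB exon equals that of Gm14391 and 85.0% of whose words occur in it, was at 5.01 FPKM in F1r, 3.04 in F1i, 30.7 in CAST and 3.35 in B6. Gm14419, with 81.2% of its words in Gm14295, was at 2.40 FPKM in F1r, 3.04 in F1i, 10.3 in CAST and 2.45 in B6. By the 2-fold rule these 2 of the 6 were higher in CAST than in B6 (33.3%) and none was lower. Over all genes compared, 2.85% were higher and 2.27% lower, so that none lower among 6 says nothing particular of the relatives. The median log2 difference of the 6 was 0.06 beside 0.04 over all genes compared. Differences within the rule were -0.63 for Gm14326, 0.00 for Gm14410, 0.13 for Gm14399 and -0.76 for Gm14434. Gm14434 was at 1.13 FPKM in F1r, 1.29 in F1i, 0.650 in CAST and 1.80 in B6, which is 2.77-fold lower in CAST than in B6 in plain FPKM and within the rule only through the added 1. In Gm6710 the hybrid mean minus the parental mean was -1.25 on the log2 scale, past the 2-fold rule, which 0.0944% of all genes passed on the lower side.

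**Figure D4:**
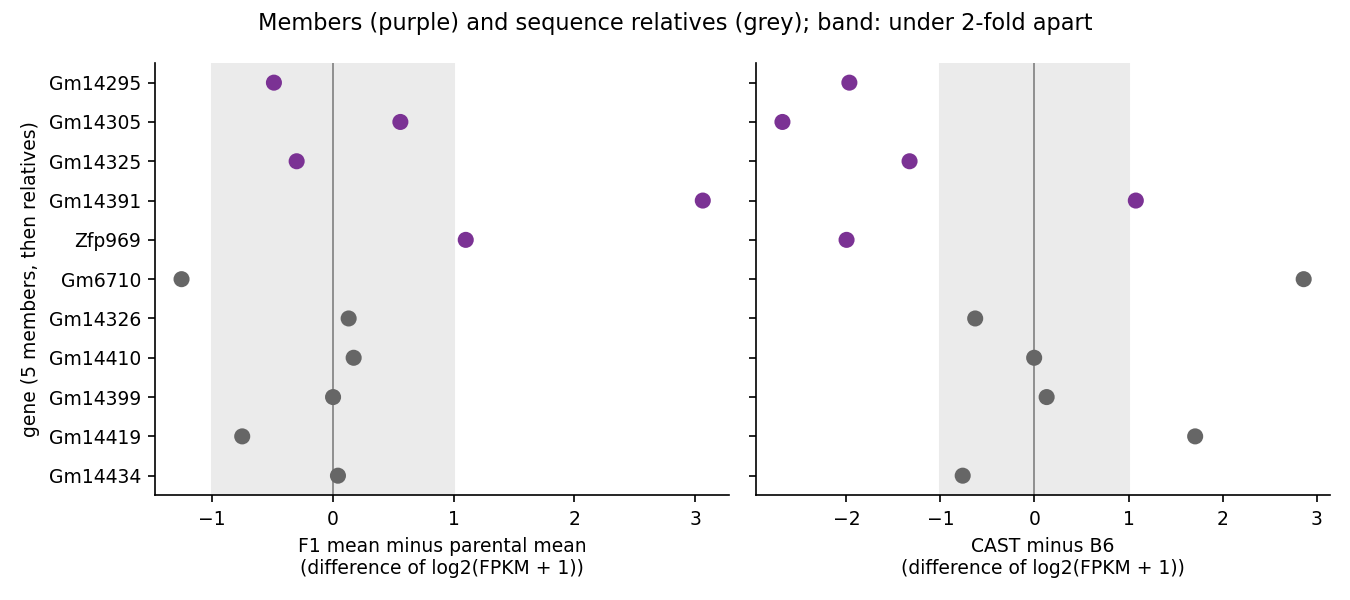
Differences of log2(FPKM + 1) for the 5 members (purple) and the 6 relatives with a mean of at least 1 FPKM (grey); left, hybrid mean minus parental mean, right, CAST minus B6, with the band under 2-fold shaded. Gm14391 lies farthest to the right in the left panel (3.06), and Gm6710, its closest relative, farthest to the left there (-1.25) and farthest to the right in the right panel (2.86).

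Adding the relatives narrowed the gap between the strains to under 2-fold. The 16 relatives summed to 34.2 FPKM in F1r, 34.5 in F1i, 65.8 in CAST and 34.1 in B6, so CAST was the highest library for them and the lowest for the members. Members and relatives together came to 92.9 FPKM in F1r, 80.0 in F1i, 86.2 in CAST and 98.5 in B6, a CAST minus B6 difference of -0.19. Weighted by transcript length, the same 21 genes came to 84.2 FPKM × kb in F1r, 76.3 in F1i, 108.8 in CAST and 84.3 in B6, and CAST was then highest.

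**Figure D5:**
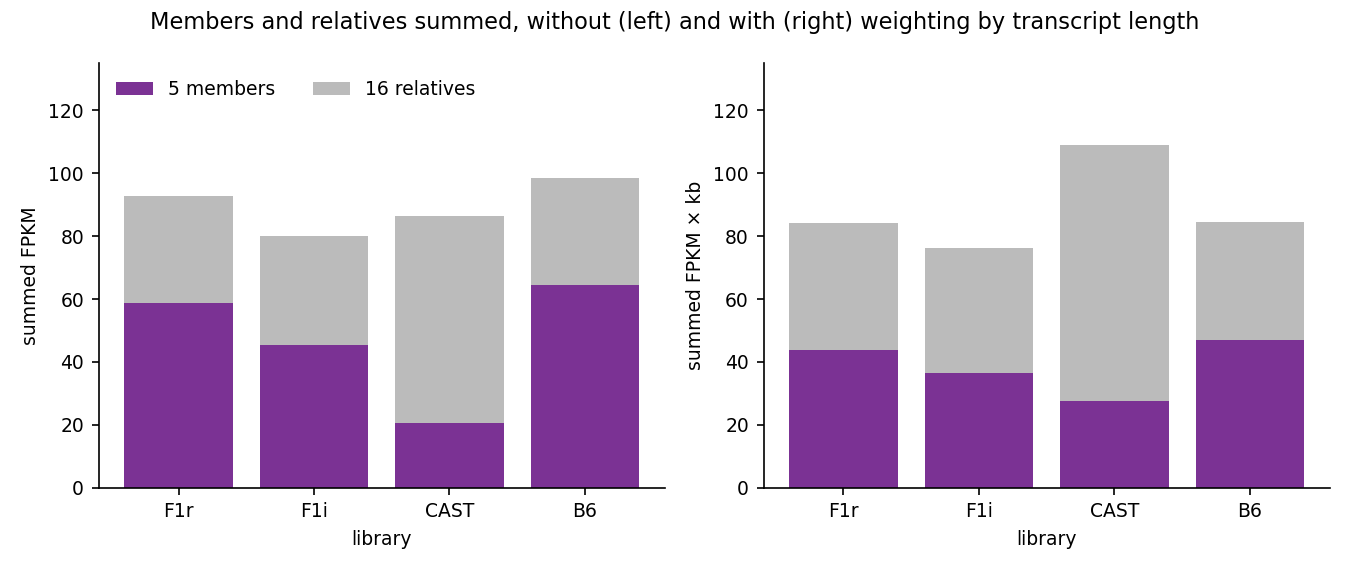
Sums over the 5 members (purple) and the 16 relatives (grey, stacked on top) in each single library, in FPKM on the left and weighted by transcript length on the right. The members alone range from 20.4 FPKM in CAST to 64.4 in B6, while the full bars range only from 80.0 FPKM in F1i to 98.5 in B6.

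Each member was also summed with the relative that holds most of its words, a pairing made after the values were seen. Gm14391 with Gm6710 came to 30.3 FPKM in F1r, 17.7 in F1i, 33.2 in CAST and 4.03 in B6. In this sum both hybrids lay between the parents, at positions 0.901 in F1r and 0.469 in F1i, and the hybrid excess of 3.06 shrank to 0.88. Gm14295 with Gm14419 came to 5.95 FPKM in F1r, 6.21 in F1i, 12.4 in CAST and 13.5 in B6; the parents were then close (-0.12) and both hybrids below them. For Gm14305 with Gm14434 the strain difference was -2.44; Gm2026 holds as many of its words (88.6%), and with that relative it was -1.90. It was -1.08 for Gm14325 with Gm14399 and -1.96 for Zfp969 with Zfp968. The part of fragments shared between copies in any of these values was not tested.

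The wider cluster and the partners of KRAB proteins give the surroundings. Between 500 kb before the first and 500 kb after the last member, 81 other genes are named Zfp or Gm with a number, relatives included; 19 reached a mean of 1 FPKM, and of these 7 were higher (36.8%) and 1 was lower (5.26%) in CAST than in B6, beside 2.85% and 2.27% over all genes, with a median of 0.36 beside 0.04 over all genes. Besides Gm6710, the higher ones included Zfp970 (11.1 FPKM in F1r, 12.8 in F1i, 19.3 in CAST and 8.50 in B6), Gm14403 (12.7 FPKM in F1r, 9.23 in F1i, 20.3 in CAST and 5.41 in B6) and Gm14418 (5.81 FPKM in F1r, 6.18 in F1i, 12.6 in CAST and 1.88 in B6). The share of words that also occur among the members was 41.5% in Zfp970, 40.7% in Gm14403 and 30.6% in Gm14418. The levels of these genes are thus uncertain for the same reason as those of the members. Of 291 zinc finger genes elsewhere in the genome that are named Zfp with a number, 1 was higher (Zfp141) and 2 were lower (Zfp125 and Zfp783) in CAST, or 0.344% and 0.687% beside 2.85% higher and 2.27% lower over all genes, with a median of 0.08. None passed the rule in the other 2 comparisons, where the shares over all genes were 0.0944% to 0.298%.

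Of 33 listed partners of KRAB repression, 32 were in the tables and 29 reached a mean of 1 FPKM; 1 of them was lower in CAST than in B6 (3.45%) and none was higher, beside 2.27% lower and 2.85% higher over all genes, with a median of 0.10. The lower one was Cbx3, which encodes the heterochromatin protein HP1 gamma, at 22.6 FPKM in F1r, 24.6 in F1i, 16.01 in CAST and 33.5 in B6. Chd3, a chromatin remodeller of the NuRD complex, was at 81.1 FPKM in F1r, 80.8 in F1i, 73.4 in CAST and 81.01 in B6. Trim28 itself, singled out after its values were seen as the corepressor that the KRAB box binds, was at 39.6 FPKM in F1r, 40.2 in F1i, 44.95 in CAST and 36.1 in B6. No partner passed the rule between the hybrids or between the hybrid and parental means, where at most 0.298% of all genes passed in either direction, so that 0 of 29 says nothing particular of the partners.

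The genes whose 4 values ran most like the sum of the members were Gm20186 on chromosome 6, AC121583.1 on chromosome 13, the unconventional myosin gene Myo7a on chromosome 7, 1700048O20Rik on chromosome 9, the peroxisomal reductase gene Decr2 on chromosome 17 and A2ml1 on chromosome 6. Their distances from the sum, over log2 profiles centred on their own means, were 0.11 to 0.23, against 0.71 to 3.21 for the single members. The 6 were picked as the closest of all genes compared outside the members, so their smaller distances are given by that choice. None of the 6 shares 10% or more of its words with the members. Decr2, the highest of them, was at 10.9 FPKM in F1r, 9.95 in F1i, 3.89 in CAST and 14.4 in B6. With 4 points a profile, this likeness is only a description.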

How the data were processed

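Total RNA of pooled left hemispheres (5 mice per library; the series design speaks of whole brain) was made into libraries with a strand-specific kit, per the labels' protocols. The authors deposited FPKM per transcript, 1 table per library. Per the submitters' processing notes, the tools included Cufflinks 2.2.1, Cuffdiff, HISAT2, Trimmomatic 0.36 and bcl2fastq 2.20, with build mm9; the tables' coordinates are those of GRCm38, since 99.5% of 128603 transcripts were found in GENCODE M21, 97.2% of these with the same start and end (18 of 18 for the members). Handling of multiply matching fragments, counting by strand and use of a CAST genome were not stated.

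Transcripts of at least 200 bases were summed per gene, and genes with a mean of at least 1 FPKM entered the counts. Differences are of log2(FPKM + 1): CAST minus B6, F1r minus F1i, and the mean log2 value of F1r and F1i minus that of CAST and B6. The 2-fold rule is one of size; no test is possible with 1 library per group. Words of 31 bases were read from the GENCODE M21 transcripts in sense orientation; a finger was C, 2 or 4 residues, C, 12 residues, H, 3 to 5 residues, H. The worth of 1 fragment was the mode of low FPKM × kb values of genes with 1 transcript over 2000 bases, and fragment numbers divide by it at full length. Members and lists were chosen with earlier results of these data known. The text names every member, at most 8 relatives by level, at most 4 genes per other list (2-fold apart first, then by level) and the 6 most similar genes. The software was Python 3.11.15 with numpy 2.4.6, pandas 2.3.3, scipy 1.17.1, biopython 1.88 and matplotlib 3.10.9, and were tested on simulated data. Alternatives covered pseudocount, scaling, filters, length weighting and the make-up of the sum.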

Additional observations from a re-analysis of the deposited data

How the results depend on the processing

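The CAST minus B6 difference of the 5-gene sum (-1.61) kept its direction and stayed past 2-fold with a pseudocount of 0.1, both rescalings, protein-coding transcripts, the 192-base transcript added, and without any one gene (-1.42 to -2.02). It was -0.74 with FPKM times length, -0.52 with transcripts of at least 500 bases and -0.19 with the relatives added; with FPKM times length and the relatives it reversed to 0.36. The hybrid minus parental difference of the sum (0.49) was 1.35 without Gm14325 and -0.08 without Gm14391, -0.10 with the relatives and -0.09 with transcripts of at least 500 bases. Gm14325 reversed from -1.33 (CAST minus B6) to 0.20 with FPKM times length and to 1.59 with transcripts of at least 500 bases, and Gm14391 from 1.08 to -0.18 when its highest transcript was taken alone. Zfp969 (hybrid minus parental mean 1.10) was at -0.032 with transcripts of at least 500 bases. The settings differ in which transcripts and genes they take in and how they weight them, and causes of these shifts were not tested.

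Counts over all genes changed more, but the filters also change how many genes are compared, so these counts are not shares. CAST minus B6 gave 393 higher and 312 lower, against 215 and 158 at a mean of at least 5 FPKM and 494 lower with a pseudocount of 0.1. F1r minus F1i gave 33 higher and 37 lower, against 112 and 73 with that pseudocount, 12 and 22 at 5 FPKM, and 57 higher with no filter. Hybrids minus parents gave 41 higher and 13 lower, against 117 and 24 with that pseudocount, 21 lower with no filter, 6 lower at 5 FPKM, and 7 higher with the log2 of the mean FPKM. Rescaling to a common total moved the median of all genes in CAST minus B6 to 0.19. Settings with 500 bases, the 192-base transcript, the log2 of the mean FPKM, closest or tied relatives, and length weighting with relatives were chosen after seeing the data. No paired analysis was possible because each group is 1 library.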

Other observations

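Further genes of the chromosome 2 cluster were at least 2-fold apart between the inbred strains. Gm14322 was at 4.69 FPKM in F1r, 3.93 in F1i, 8.63 in CAST and 2.89 in B6. Gm14288 was at 1.74 FPKM in F1r, 1.93 in F1i, 5.49 in CAST and 1.10 in B6. Both were higher in CAST than in B6, with the hybrids in between. Zfp973, which overlaps Gm14305, was the 1 gene past the 2-fold rule on the lower side in CAST among the 19 cluster genes compared, at -1.38 on the log2 scale. Of their words, 40.0% in Gm14322, 31.5% in Gm14288 and 42.9% in Zfp973 also occur among the members. These genes were singled out after their values were seen.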
